A study of Macaca mulatta with 5 samples.

Results

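The glucocorticoid receptor gene NR3C1, the mineralocorticoid receptor gene NR3C2 and 7 genes known to respond to glucocorticoids (FKBP5, SGK1, ZBTB16, HIF3A, ARRDC2, TSC22D3 and PER1) were followed across the cell classes of the macaque claustrum. All 9 genes were found by symbol, each as 1 of the 21761 genes in every library. They were chosen from values of these same data seen earlier, among them the difference in FKBP5 between the animals. Their levels and their differences between animals are therefore given as a description, without a test.

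The nuclei came from frozen claustrum, a thin sheet of grey matter between insular cortex and striatum, of 2 healthy, untreated male rhesus macaques (Macaca mulatta), and their RNA was read with the 10x Genomics 3' V3 kit. The 17-month animal is represented by 2 libraries, and the 18-month animal by 3. Each age is 1 animal, so age and animal cannot be told apart, and libraries of an animal measure repeats on that animal only.

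Cortisol, the main glucocorticoid of primates, enters cells and binds both receptors, which are held in the cytoplasm by HSP90-based chaperones and move to the nucleus to act as transcription factors. The mineralocorticoid receptor binds cortisol with higher affinity, so in brain it is largely occupied at resting hormone levels, while the glucocorticoid receptor fills during stress and at the daily hormone peak. FKBP5 encodes a co-chaperone that lowers the receptor's affinity for hormone and is itself induced by it, which closes a short feedback loop.

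After filtering, 37091 of 40005 nuclei were kept. Clusters were named from marker genes, so each class name below means nuclei that resemble that type. The classes were excitatory (8803 nuclei), inhibitory (2740) and striatal projection neurons (1938), oligodendrocytes (14522), oligodendrocyte precursors (2062), microglia (2828), astrocytes (1162) and endothelial cells (490). A level is the summed count of unique molecular identifiers (UMIs) of a gene in a class and library, per 1000000 UMIs of that sum (CPM). Sums held between 267533 UMIs (endothelial) and 35545172 UMIs (excitatory). Across libraries, 197 barcode sequences occurred in 2 or more. Microglial markers in the other 7 classes summed to at most 2.07% of their level in microglia, and astrocyte markers in endothelial sums to 2.29% to 14.6% of their level in astrocytes, highest in 17-month library 1. Some other shares were larger. Excitatory markers reached 48.0% to 57.6% of their own-class level in microglia, 39.1% to 48.6% in oligodendrocytes and 20.2% to 34.3% in endothelial cells. Oligodendrocyte markers reached 11.2% to 15.7% in microglia. The part of foreign RNA in the class levels was not tested. The data are nuclear RNA from the 3' end, so levels are compared between classes for 1 gene and never between genes.

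Both receptor transcripts were detected in every class and library, but their orders over the classes differed. NR3C1 was highest in endothelial cells, at 483 and 591 CPM in the 17-month against 603, 490 and 629 CPM in the 18-month libraries. Microglia followed at 424 and 435 CPM in the 17-month animal and 527, 533 and 575 CPM in the 18-month animal, and the ranges of these classes overlapped. Precursors came next (363 to 404 CPM) and overlapped neither microglia nor oligodendrocytes (271 to 314 CPM). Excitatory neurons (212 to 290 CPM) and astrocytes (216 to 267 CPM) overlapped, and inhibitory (148 to 168 CPM) and striatal projection neurons (130 to 156 CPM) had the lowest levels. From the highest to the lowest class the mean fell 3.93-fold.

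NR3C2 was also highest in endothelial cells, at 713 and 815 CPM in the 17-month against 753, 759 and 965 CPM in the 18-month libraries. Astrocytes came second, at 589 and 602 CPM against 617, 633 and 704 CPM, with no overlap. The third class was inhibitory neurons (351 to 425 CPM), which were near the bottom for NR3C1. Striatal projection neurons (271 to 344 CPM) and precursors (254 to 306 CPM) overlapped. Microglia (160 to 187 CPM), excitatory neurons (109 to 166 CPM) and oligodendrocytes (112 to 171 CPM) formed the low end, and the mean in oligodendrocytes was 5.71-fold below that in endothelial cells. Microglia thus ranked second for NR3C1 and sixth for NR3C2, and astrocytes ranked second for NR3C2 and sixth for NR3C1.

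**Figure D1:**
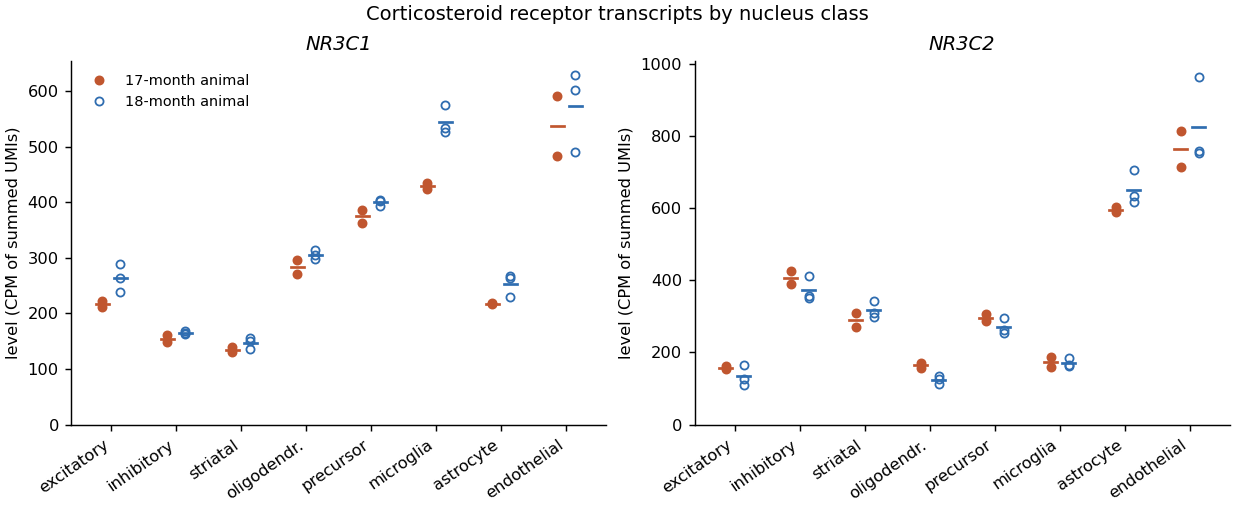
Levels of NR3C1 (left) and NR3C2 (right) in CPM of summed UMIs for 8 nucleus classes; each point is a library, filled for the 17-month and open for the 18-month animal, and bars are the mean of each animal. Endothelial cells lead for both genes, microglia stand high only on the left, and astrocytes and inhibitory neurons rank higher on the right.

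Within inhibitory neurons, the receptors set subclasses apart. In VIP-like nuclei (719 nuclei), NR3C2 stood at 835 and 868 CPM in the 17-month against 856, 695 and 814 CPM in the 18-month libraries, which overlapped the endothelial range. LAMP5- or SNCG-like nuclei (673) had 393 to 483 CPM and SST-like nuclei (436) had 108 to 125 CPM of NR3C2, so the 3 ranges were separate. NR3C1 was also highest in VIP-like nuclei (259 to 331 CPM), but its lowest level was in LAMP5- or SNCG-like nuclei (81.1 to 103 CPM), below SST-like nuclei (138 to 172 CPM). Among excitatory neurons, 4 clusters were claustrum-like (5136 nuclei). Among their 10 leading genes, clusters 1, 2 and 5 of them had 0 claustrum markers and cluster 3 had 1. Cluster 5 (935 nuclei) also had 1 marker of another class there, DRD2, so the clusters are given by number. NR3C2 was at 96.0 to 215 CPM in cluster 1, 123 to 152 CPM in cluster 2, 65.1 to 133 CPM in cluster 3 and 147 to 203 CPM in cluster 5. Layer 6 corticothalamic-like nuclei (611) had 67.2 and 71.0 CPM in the 17-month against 37.7, 29.0 and 41.9 CPM in the 18-month libraries, below clusters 1, 2 and 5 and overlapping cluster 3. NR3C1 in layer 6 corticothalamic-like nuclei (157 to 215 CPM) overlapped clusters 1, 2 and 3 and lay below cluster 5 (251 to 300.05 CPM).

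Mural- or fibroblast-like nuclei (163) had at least 20 nuclei in 4 libraries. There NR3C1 was at 356 and 325 CPM in the 17-month against 364 and 356 CPM in the 18-month libraries, and NR3C2 at 416 and 559 CPM against 194 and 294 CPM. FKBP5 was at 140.4 and 208 CPM against 12.1 and 61.9 CPM, from 26, 16, 1 and 4 UMIs. In 135 committed oligodendrocyte precursor-like nuclei, given as a pooled sum, FKBP5 was at 19.1 CPM and SGK1 at 413 CPM.

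FKBP5 was highest in microglia, at 561 and 668 CPM in the 17-month against 502, 478 and 510 CPM in the 18-month libraries. This range stood above all other classes. Astrocytes, endothelial cells and precursors came next with overlapping ranges, because each of these classes spread widely between the animals. Excitatory neurons, oligodendrocytes, striatal projection neurons and inhibitory neurons were low, and each overlapped the next in order. The mean in microglia was 27.6 times that in inhibitory neurons.

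SGK1, a kinase that regulates ion channels and transporters, had a different order. It was highest in striatal projection neurons, at 1239 and 1212 CPM in the 17-month animal and 1120, 936 and 1071 CPM in the 18-month animal. Precursors (698 to 929 CPM) and oligodendrocytes (637 to 840 CPM) overlapped below that, followed without overlap by inhibitory (399 to 439 CPM) and excitatory neurons (117 to 137 CPM). Microglia, endothelial cells and astrocytes, the classes with the highest FKBP5, had at most 83.3 CPM of SGK1. Without removal of likely doublets the endothelial SGK1 mean was 2.12 times higher. LAMP5- or SNCG-like nuclei held 670 to 819 CPM, against 245 to 291 CPM in VIP-like and 118 to 160 CPM in SST-like nuclei.

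ZBTB16, which encodes a zinc finger transcription factor, was highest in inhibitory neurons (307 to 342 CPM) and then in endothelial cells (202 to 289 CPM). Astrocytes, precursors and oligodendrocytes lay between 118 and 206 CPM, and excitatory neurons between 26.5 and 100.1 CPM. Microglia had 18.3 and 23.4 CPM in the 17-month against 8.45, 5.61 and 6.88 CPM in the 18-month libraries. Striatal projection neurons had 8.23 and 11.2 CPM against 3.35, 3.95 and 5.04 CPM. The class with the most SGK1 thus had the least ZBTB16, and microglia, highest for FKBP5, were second lowest. Layer 4/5 intratelencephalic-like nuclei (183) reached 261 CPM over all libraries, against at most 107 CPM in any library of the claustrum-like clusters.

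HIF3A, a hypoxia-inducible factor subunit, was found mainly in astrocytes, at 66.9 and 88.0 CPM in the 17-month against 32.9, 32.4 and 36.0 CPM in the 18-month libraries. The next class by mean was excitatory neurons, 14.9-fold lower. Endothelial sums held 10 HIF3A UMIs in 17-month library 1 (8.23 CPM), 1 UMI in 17-month library 2 (2.13 CPM) and 0 in each 18-month library. Astrocyte markers in those endothelial sums were at 2009 CPM and 485 CPM in the 17-month against 1007, 456 and 399.7 CPM in the 18-month libraries, and their part in the HIF3A values was not tested.

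TSC22D3, which encodes the anti-inflammatory mediator GILZ, fell into 2 groups of classes. Endothelial cells (89.4 to 125 CPM), oligodendrocytes (70.6 to 85.9 CPM) and precursors (58.1 to 85.6 CPM) held it, and the other 5 classes had at most 16.8 CPM. PER1, a core component of the circadian clock, varied least of the 7 targets, from 91.8 ± 24.5 CPM (SD, n = 5) in endothelial cells to 30.2 ± 4.13 CPM in excitatory neurons. ARRDC2, an arrestin-domain gene, was low in every class, with its highest mean in oligodendrocytes (14.04 ± 3.73 CPM) and its lowest in inhibitory neurons (2.50 ± 0.51 CPM). Only 2 to 9 UMIs stood behind each precursor sum of ARRDC2 and 1 to 5 behind each astrocyte sum. Differences among its low classes were not tested.

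**Figure D2:**
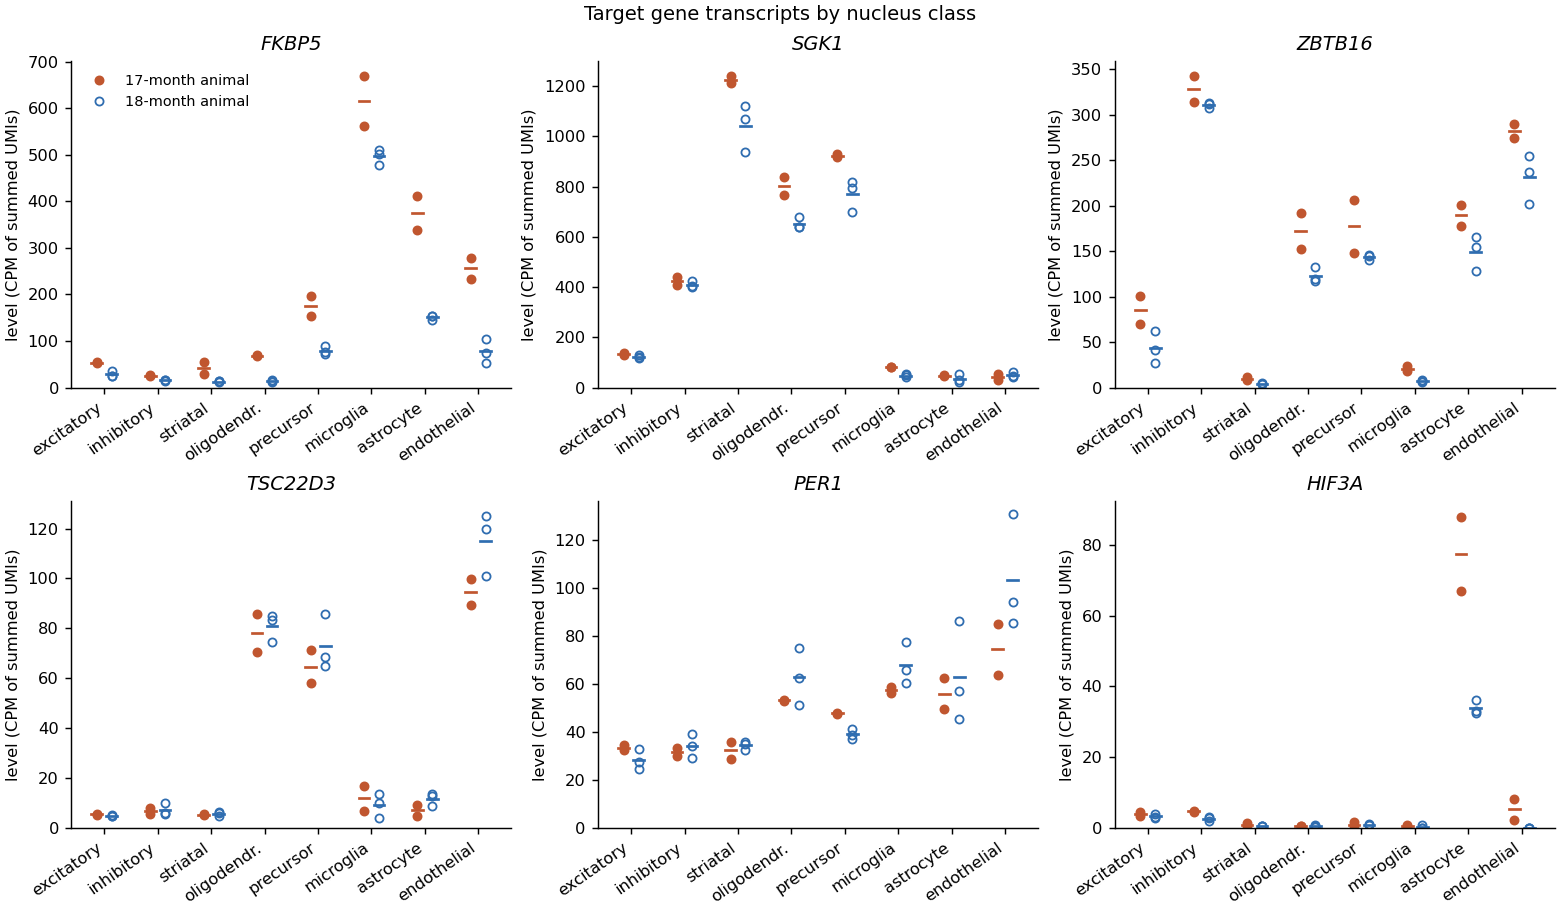
Levels of 6 target genes in CPM of summed UMIs for 8 nucleus classes, drawn as for the receptors (filled points 17-month animal, open points 18-month animal, bars the mean of each animal). FKBP5 peaks in microglia, SGK1 in striatal projection neurons, ZBTB16 in inhibitory neurons and HIF3A in astrocytes, and FKBP5 points of the 2 animals are apart in every class.

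The targets followed the receptors unevenly from class to class. Over the 8 classes, mean log2(CPM + 1) of NR3C1 correlated with that of PER1 (Pearson r = 0.77, Spearman rho = 0.69), FKBP5 (r = 0.73, rho = 0.67) and TSC22D3 (r = 0.66, rho = 0.76). Within single libraries r ranged from 0.55 to 0.89 for PER1, from 0.66 to 0.78 for FKBP5 and from 0.50 to 0.76 for TSC22D3. SGK1 ran the other way (r = -0.49), and without the 2 classes farthest from the median of NR3C1, endothelial and striatal projection, its r was -0.09. The same omission left FKBP5 at 0.71, PER1 at 0.58 and TSC22D3 at 0.40, and turned ZBTB16 from 0.16 to -0.73. For ARRDC2 and HIF3A, r with NR3C1 was 0.50 and -0.30, and 0.36 and -0.53 after that omission. With NR3C2, r was 0.19 for FKBP5, 0.43 for ZBTB16, 0.46 for HIF3A and -0.39 for SGK1. It was 0.40 for PER1, 0.17 for TSC22D3 and -0.45 for ARRDC2. Without endothelial cells and astrocytes the value for SGK1 turned to 0.49, that for FKBP5 to -0.28, and those for HIF3A and ZBTB16 fell to 0.18 and 0.15. PER1 then stood at -0.46, TSC22D3 at -0.21 and ARRDC2 at -0.97. These are descriptions of 8 points that share the same 5 libraries and differ in depth.

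Genes with the profile most like each of 3 members were ranked by Pearson r of log2(CPM + 1) over the 40 class sums, among 10519 genes with at least 20 CPM in a class. Among the genes nearest to NR3C1 were CREB1 (r = 0.94), HNRNPH1 (0.92), KLF3 (0.92) and SPCS3 (0.91). For NR3C2 these were ADAMTS9 (r = 0.90), RORA (0.88), MFHAS1 (0.88), PREX2 (0.88) and BCAM (0.87). FKBP5 was nearest to IDH1 (r = 0.93), C1RL (0.92), AKAP13 (0.90), ACSF2 (0.88) and GALM (0.88), each of which had its highest level in microglia.

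Between the animals, FKBP5 was higher in the 17-month animal in all 8 classes, and in each of them both 17-month libraries lay above all 3 18-month libraries. Differences between animals are given as log2 of the 17-month over the 18-month animal, from an edgeR fit over all genes of a class with its standard error. In oligodendrocytes the levels were 69.2 and 67.7 CPM against 14.4, 11.2 and 15.9 CPM, a difference of 2.30 ± 0.13 (SE). Endothelial cells had 234 and 279 CPM against 75.0, 105 and 53.5 CPM (1.75 ± 0.22). Astrocytes had 339 and 412 CPM against 146, 154 and 153 CPM (1.27 ± 0.13). Precursors had 153 and 197 CPM against 89.2, 71.1 and 76.4 CPM (1.14 ± 0.13). The glial and endothelial classes other than microglia thus differed by more than 2-fold.

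The 3 neuron classes had the same direction at lower levels. Striatal projection neurons had 28.2 and 54.1 CPM against 13.0, 11.9 and 13.0 CPM (1.61 ± 0.23), and this value ranged from 1.11 without 17-month library 2 to 2.03 without 17-month library 1. Excitatory neurons had 51.8 and 54.8 CPM against 35.6, 25.5 and 25.6 CPM (0.84 ± 0.15). Inhibitory neurons had 26.1 and 24.0 CPM against 14.96, 16.7 and 16.7 CPM (0.63 ± 0.14). Astrocyte markers in the inhibitory sums, 3 of 6 at 10 CPM or more, moved the same way, at 213 and 169 CPM against 133, 117 and 101 CPM. Endothelial markers did so in striatal projection neurons (159.8 and 181 CPM against 153, 119 and 123 CPM) and oligodendrocytes (50.3 and 38.4 CPM against 36.9, 31.2 and 36.0 CPM). Their part in the FKBP5 values was not tested. The smallest difference, 0.33 ± 0.09, was in microglia, where FKBP5 was highest. Fitted genes were also ranked by signed log2 difference, from the highest in the 17-month animal, so large negative differences did not count. FKBP5 was 27th of 13250 genes in oligodendrocytes, 33rd of 8269 in endothelial cells, 64th of 8866 in astrocytes and 101st of 10675 in precursors. It was 82nd of 12243 in striatal projection, 483rd of 15729 in excitatory and 505th of 13155 in inhibitory neurons, and 2239th of 10684 in microglia.

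Oligodendrocytes fell into clusters that held different animals: cluster 1 had 229 nuclei of the 17-month and 7281 of the 18-month animal, cluster 2 had 5472 and 407, and cluster 12 had 218 and 915. The FKBP5 difference was present within each. Cluster 1 had 80.7 and 59.4 CPM in the 17-month libraries against 14.2, 11.6 and 14.5 CPM, resting on 17 and 21 UMIs in the 17-month libraries. Cluster 2 had 68.7 and 66.2 CPM against 13.7, 2.94 and 0 CPM, resting on 3, 1 and 0 UMIs in the 18-month libraries. Cluster 12 had 68.9 and 96.5 CPM against 15.4, 11.1 and 27.4 CPM. Microglial marker sums in oligodendrocytes overlapped between the animals, at 46.5 and 43.8 CPM against 52.3, 45.0 and 38.5 CPM. Astrocyte marker sums there also overlapped, at 330 and 201 CPM against 207, 217 and 181 CPM. The part of either in the FKBP5 values was not tested.

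FKBP5 was also compared between the animals within neuron subclasses, and differences between subclasses were not tested. In each of the 4 claustrum-like clusters both 17-month libraries were above the 18-month libraries. Cluster 1 had 47.2 and 66.0 CPM against 37.3, 23.4 and 19.5 CPM, cluster 2 had 37.6 and 39.3 CPM against 27.7, 26.0 and 14.5 CPM, cluster 3 had 36.9 and 47.1 CPM against 19.5, 15.5 and 7.72 CPM, and cluster 5 had 60.01 and 54.9 CPM against 40.2, 28.3 and 28.4 CPM. VIP-like nuclei had 36.2 and 44.5 CPM against 12.2, 15.5 and 10.98 CPM, without overlap. Layer 6 corticothalamic-like nuclei were closer, at 23.0 and 24.7 CPM against 13.9, 16.1 and 22.9 CPM. In SST-like and in LAMP5- or SNCG-like nuclei, where a library held at most 28 FKBP5 UMIs, the animals overlapped. Pooled by animal, both were higher in the 17-month animal. SST-like nuclei had 23.4 CPM in the 17-month against 9.62 CPM in the 18-month animal, from 36 and 31 UMIs. LAMP5- or SNCG-like nuclei had 12.5 against 4.68 CPM, from 30 and 16 UMIs. The pooled ratios of 2.43 in SST-like and 2.67 in LAMP5- or SNCG-like nuclei stood near the 2.97 of VIP-like nuclei. A pair of unnamed inhibitory clusters had lower pooled FKBP5 levels in the 17-month animal. Cluster 9 (112 nuclei) had 15.7 CPM in the pooled 17-month and 59.2 CPM in the pooled 18-month nuclei, from 8 and 41 UMIs. Cluster 10 (90 nuclei), with the highest neuronal level, had 119 CPM and 153 CPM, from 45 and 96 UMIs. Of those 96 UMIs, 44 came from 15 nuclei of 18-month library 3. Only 17-month library 1 and 18-month library 1 held at least 20 nuclei, and they were alike at 113 and 111 CPM. Cluster 10 held 141 of the 490 FKBP5 UMIs of the inhibitory class. The class difference therefore combines clusters whose pooled values ran in different directions.

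**Figure D3:**
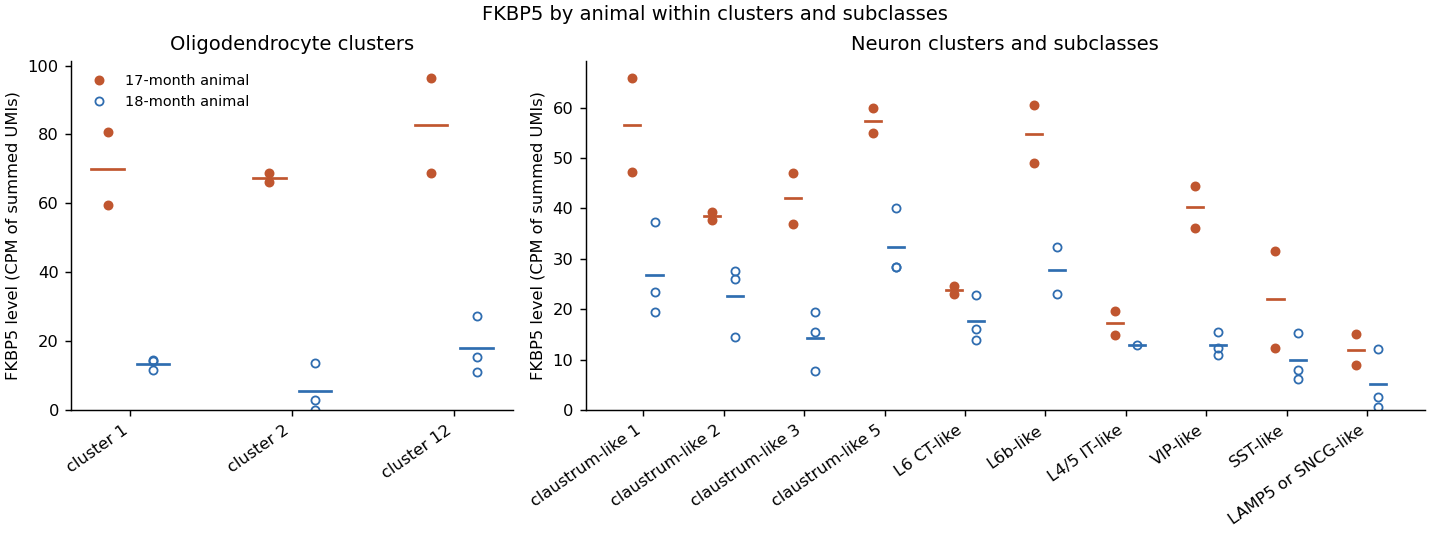
FKBP5 level in CPM of summed UMIs within 3 oligodendrocyte clusters (left), and 4 claustrum-like clusters and 6 other neuron subclasses (right); points are libraries with at least 20 nuclei, filled for the 17-month and open for the 18-month animal, and bars are the mean of each animal. The 17-month points lie above the 18-month points in all 3 oligodendrocyte and all 4 claustrum-like clusters, and in the SST-like and LAMP5- or SNCG-like nuclei the animals overlap.

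The other targets did not share one pattern. ZBTB16 had both 17-month libraries above the 18-month libraries in all 8 classes, SGK1 in 5 and HIF3A in 3, of which the endothelial HIF3A values are the counts of 10, 1 and 0 UMIs given above. Over all fitted genes the share with that separation was 31.2% in excitatory, 20.4% in inhibitory and 27.9% in striatal projection neurons, 25% in oligodendrocytes, 16% in precursors, 17.3% in microglia, 17.3% in astrocytes and 16.4% in endothelial cells. All classes come from the same 5 libraries and are not separate repeats. The ZBTB16 difference ran from 0.07 ± 0.06 in inhibitory neurons to 1.57 ± 0.36 in microglia, where the sums held 7 to 25 UMIs. Endothelial markers in the microglial sums, 3 of 6 at 10 CPM or more, summed to 705 and 710 CPM in the 17-month against 376, 380 and 420.4 CPM in the 18-month libraries, and their part in the microglial ZBTB16 values was not tested. ZBTB16 was higher in both 17-month libraries in each of the 4 claustrum-like clusters, for example at 58.6 and 95.9 CPM against 24.3, 20.7 and 8.71 CPM in cluster 3. VIP-like nuclei overlapped. SGK1 differed most in microglia, at 82.4 and 83.3 CPM against 40.7, 48.9 and 53.0 CPM (0.83 ± 0.18). Oligodendrocytes, with SGK1 at 768 and 840 CPM against 640, 637 and 680 CPM, were far above microglia. Oligodendrocyte markers in the microglial sums were at 1102 and 1611 CPM against 1368, 1426 and 1255 CPM. Their part in the microglial SGK1 values was not tested. HIF3A in astrocytes differed by 1.14 ± 0.23.

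ARRDC2 in oligodendrocytes was lower in the 17-month animal, at 10.1 and 10.1 CPM against 18.1, 16.3 and 15.6 CPM (-0.74 ± 0.15). TSC22D3, a classical glucocorticoid-induced gene, overlapped in 7 of 8 classes and was lower in the 17-month animal in endothelial cells (-0.30 ± 0.21). PER1 overlapped in 5 classes, and its differences ran from -0.39 ± 0.24 in endothelial cells to 0.30 ± 0.17 in precursors. NR3C1 had fitted differences below 0 in all 8 classes, from -0.32 ± 0.08 in excitatory neurons and -0.32 ± 0.09 in microglia to -0.09 ± 0.08 in precursors. In 6 of the 8 classes its 18-month libraries all lay above both 17-month libraries. Over all fitted genes, the share separate in either direction ran from 33.1% in astrocytes to 49.7% in excitatory neurons. Those shares include genes separate in the direction opposite to NR3C1, which were 17.3% in astrocytes and 31.2% in excitatory neurons. The share in the direction of NR3C1 was thus smaller than the share in either direction. Leaving out 1 library moved the endothelial NR3C1 value of -0.11 to between -0.28 and 0.02. NR3C2 differed most in oligodendrocytes, at 171 and 158 CPM against 127, 134 and 112 CPM (0.38 ± 0.08). In each of the 8 classes the fitted differences of both receptors were smaller in size than that of FKBP5, by little in microglia (-0.32 for NR3C1 beside 0.33 for FKBP5).

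**Figure D4:**
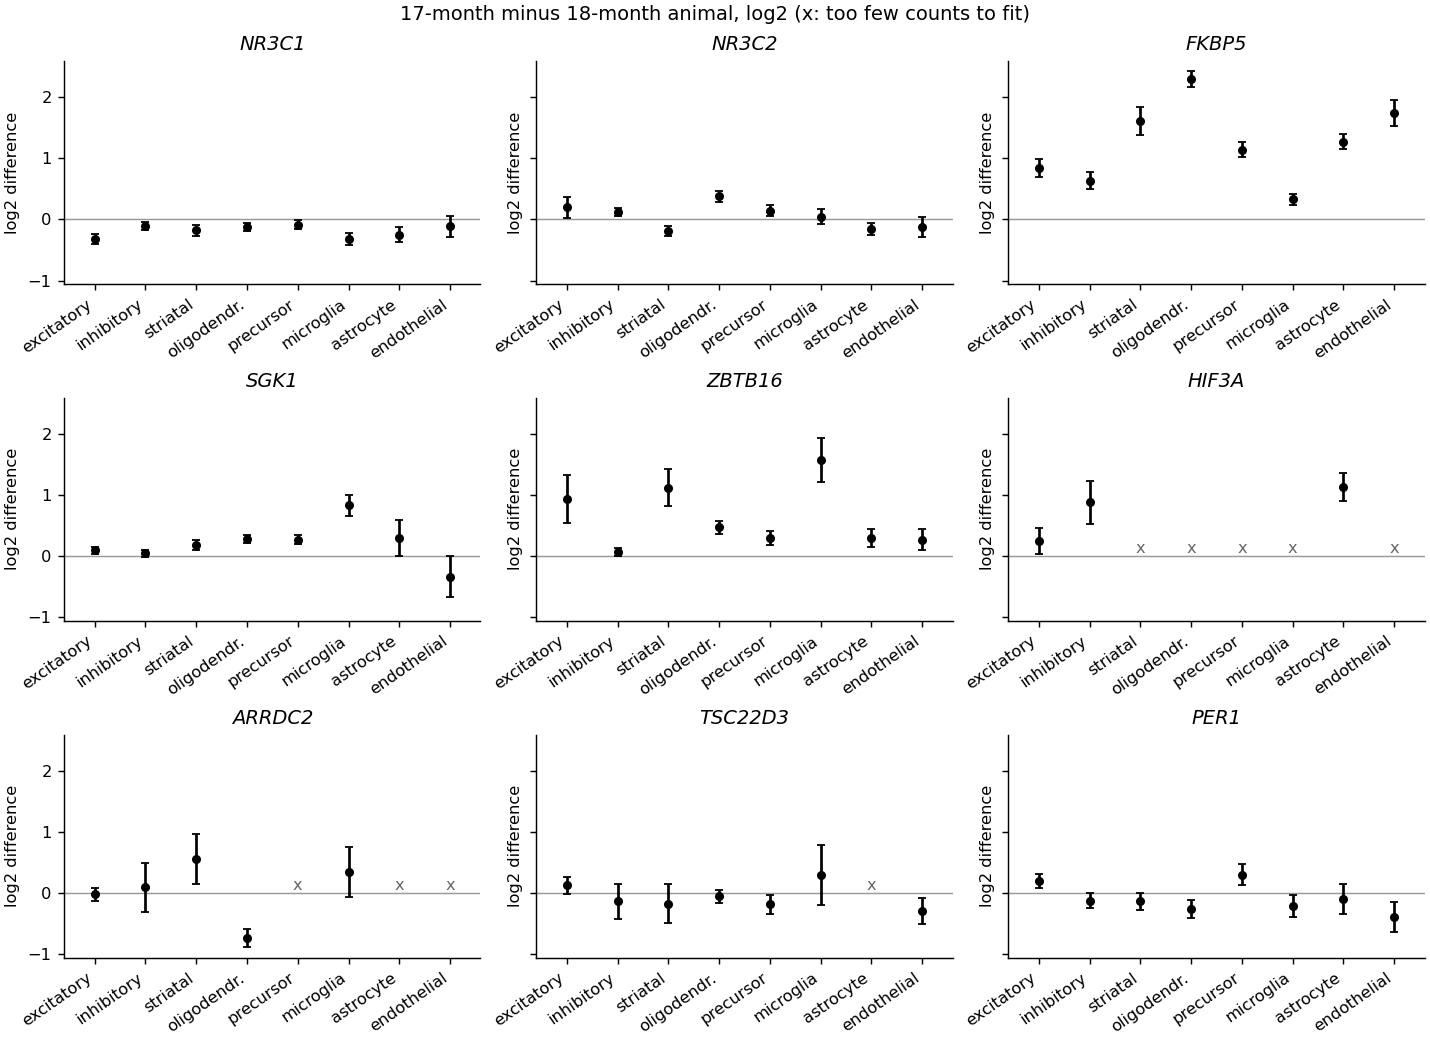
Fitted log2 difference of the 17-month minus the 18-month animal with its standard error for each of the 9 genes (panels) in 8 nucleus classes; a small x marks a class with too few counts to fit. FKBP5 lies above 0 in every class, from 0.33 in microglia to 2.30 in oligodendrocytes. NR3C1 lies below 0 in every class, between -0.32 and -0.09.

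Other genes of the pathway, which were not among the 9 members, were tested with edgeR's quasi-likelihood test over all genes of a class, with Benjamini-Hochberg adjustment and a gene was called where the adjusted p was below 0.05. The share of all genes called between the animals was 13.5% in excitatory, 7.02% in inhibitory and 11.1% in striatal projection neurons, 13.9% in oligodendrocytes, 5.45% in precursors, 6.18% in microglia, 5.2% in astrocytes and 3.58% in endothelial cells. Of 26 other glucocorticoid-induced genes, 134 tests over the 8 classes gave 3 calls higher and 8 calls lower in the 17-month animal, from 7 genes. The median log2 difference of these genes ran from -0.19 in excitatory neurons to 0.15 in precursors, and that of all genes lay between -0.01 and 0.01 in every class. Of the 134 fitted differences, 61 lay above 0.

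PER2, a circadian clock gene, was lower in the 17-month animal in striatal projection neurons, with 31.2 ± 2.49 CPM (SD, n = 2) against 58.7 ± 4.11 CPM (n = 3), a log2 difference of -0.97 and an edgeR adjusted p of 0.00018. It was also lower in astrocytes (-0.92, edgeR adjusted p = 0.022) and oligodendrocytes (-0.60, edgeR adjusted p = 0.035). The astrocyte call was lost without either 17-month library or 18-month libraries 1 or 3 (adjusted p up to 0.16), and the oligodendrocyte call without either 17-month library or 18-month libraries 1 or 2 (up to 0.16). DUSP1, a phosphatase that dampens MAP kinase signalling, was lower in inhibitory neurons (-1.46, edgeR adjusted p = 0.0017) and endothelial cells (-0.91, edgeR adjusted p = 0.011). The endothelial call was lost without 18-month library 1 (adjusted p = 0.12), with likely doublets kept (0.15) and with DESeq2 (0.053). DESeq2 also ended the PER2 calls in astrocytes (0.13) and oligodendrocytes (0.094), and keeping doublets ended the latter (0.055). SESN1 fell by 0.38 in striatal projection neurons (edgeR adjusted p = 0.0036).

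ANXA1, the gene of an anti-inflammatory annexin, was lower in excitatory neurons (-1.63, edgeR adjusted p = 0.039), a call lost without either 17-month library or 18-month library 1 (up to 0.19). The 3 higher calls were smaller. IRS2, an insulin receptor substrate, was higher in oligodendrocytes (0.42, edgeR adjusted p = 0.0074) and inhibitory neurons (0.34, edgeR adjusted p = 0.048), the latter lost without any 1 of the 5 libraries (up to 0.23) and with DESeq2 (0.37). MT2A, a metallothionein, was higher in oligodendrocytes (0.67, edgeR adjusted p = 0.016), lost without either 17-month library or 18-month libraries 1 or 3 (up to 0.09).

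**Figure D5:**
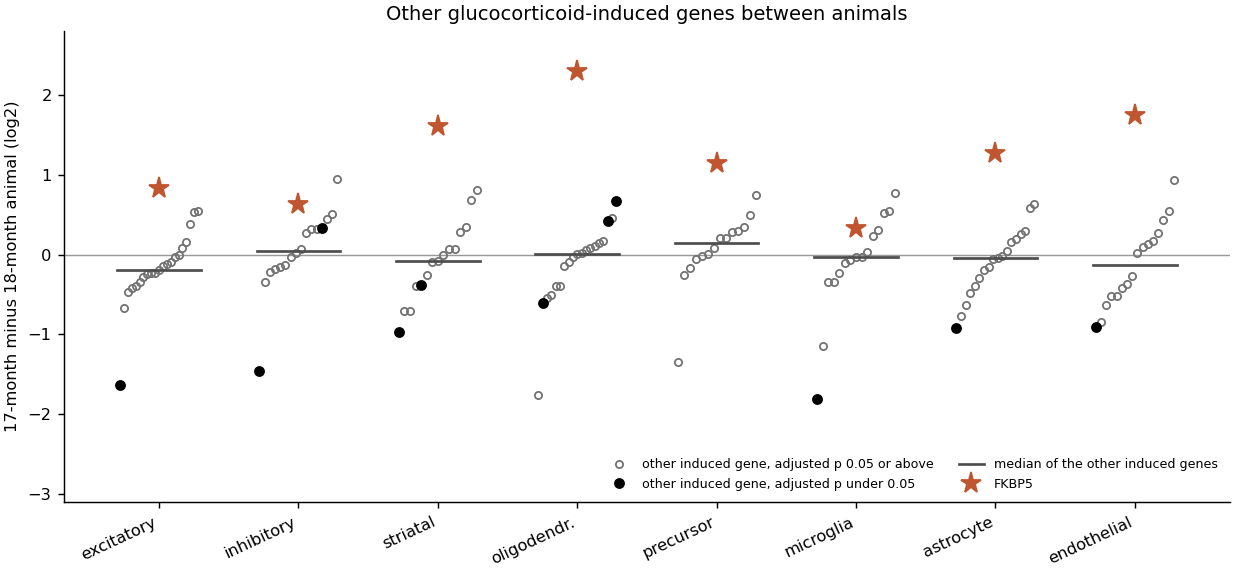
Log2 difference of the 17-month minus the 18-month animal for the fitted genes of a list of 26 other glucocorticoid-induced genes in each nucleus class; filled points have an adjusted p under 0.05, bars are the list's medians and stars are FKBP5. The medians lie near 0, between -0.19 and 0.15, and the FKBP5 stars lie above 0 in all 8 classes.

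Of 16 chaperone and coregulator genes of the receptors, 123 tests gave 12 calls, all lower in the 17-month animal. With DESeq2 8 were lower and 0 higher, and at an unadjusted p under 0.05 edgeR had 23 lower and 6 higher. The chaperone gene HSP90AA1, which holds unliganded receptor, was lower in endothelial cells (288 ± 55.1 against 616 ± 35.3 CPM, log2 -1.09, edgeR adjusted p = 0.00079) and striatal projection neurons (-0.45, edgeR adjusted p = 0.0025). Both passed with any 1 library left out, and the endothelial call had an adjusted p of 0.069 when likely doublets were kept. In inhibitory neurons (-0.33, edgeR adjusted p = 0.036) the call was lost without 17-month library 2 or 18-month libraries 1 or 3 (up to 0.32) and with DESeq2 (0.15). HSPA8, a constitutive HSP70 chaperone, was lower in 5 classes by 0.44 to 0.90 on the log2 scale, but lost its call in each of them without 17-month library 2. The call was also lost without 18-month libraries 1 or 3 in endothelial cells, oligodendrocytes and microglia, and without 17-month library 1 in the latter 2 (adjusted p up to 0.20 over the 5 classes). DESeq2 ended it in inhibitory neurons (0.14) and microglia (0.21), and keeping doublets in endothelial cells (0.11). In oligodendrocytes STIP1 (-0.49, edgeR adjusted p = 0.010) and FKBP4 (-0.54, edgeR adjusted p = 0.017) were lower. STIP1 was lost without 17-month library 2 (0.077) and FKBP4 without either 17-month library or 18-month library 1 (up to 0.10).

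Of 6 heat shock genes, 2 gave 6 lower calls in the 17-month animal in 31 tests, HSPH1 in 5 classes and HSPB1 in endothelial cells. Of these 6 calls, 0 passed in all 5 fits without 1 library. Of 9 activity-regulated genes, 36 tests gave 5 lower calls, of which 2 passed in all such fits, FOS in inhibitory and NR4A1 in striatal projection neurons. Red blood cell genes gave 1 call in 3 tests, HBA in excitatory neurons, at under 1 CPM. Summed heat shock genes in endothelial cells were at 212 and 123 CPM in the 17-month against 362, 333 and 336 CPM in the 18-month libraries, and in oligodendrocytes at 132 and 114 CPM against 176, 137 and 159 CPM. The animals overlapped in astrocytes (142 and 139 CPM against 203, 124 and 134 CPM) and striatal projection neurons (174 and 152 CPM against 183, 169 and 155 CPM), and the 17-month libraries were lower in the other 4 classes. The part of such differences in the values of FKBP5, the chaperones or DUSP1 was not tested. Of 4 other steroid receptor genes, 22 edgeR tests gave 0 calls, with 4 at an unadjusted p under 0.05, all lower, and 1 lower call with DESeq2. The enzyme gene SRD5A1, whose product reduces steroid hormones, was higher in oligodendrocytes of the 17-month animal (0.59, edgeR adjusted p = 0.040), a call lost without either 17-month library or 18-month libraries 2 or 3 (up to 0.16) and with DESeq2 (0.097).

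Between classes, the other induced genes were highest in astrocytes and endothelial cells. Each class was set against the mean of the other 7 with library as a block, over 10357 genes not used to build or name the clusters, and a call needed an adjusted p below 0.05 together with a log2 difference of 1 or more in size. Listed genes were kept out of clustering, so these 10357 genes lack the clustering genes while the list lost none to them. Of 21 tested induced genes, 13 were called higher in astrocytes (10.9% of the 10357 genes), 12 in endothelial cells (14.8%), 4 in precursors (8.57%) and 3 in oligodendrocytes (8.8%). Microglia (10.9%) and striatal projection neurons (14.3%) had 2 each, and excitatory neurons (14%) had 1. Inhibitory neurons (10.5%) had 0 with edgeR and 0 with DESeq2, and 3 at an unadjusted p under 0.05. The list's median log2 difference was 1.76 in astrocytes and 2.14 in endothelial cells, against -0.07 and -0.20 for the 10357 genes. It was -0.68, -1.004 and -1.17 in excitatory, inhibitory and striatal projection neurons.

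In astrocytes the metallothionein gene MT2A stood at 435 ± 29.3 CPM (SD, n = 5) against a mean of 19.0 CPM in the other classes (log2 4.86, edgeR adjusted p = 2.3e-32). RGCC was at 247 ± 21.4 CPM against 29.4 CPM (4.12). PDK4, which restrains glucose oxidation, was at 41.0 ± 12.3 CPM (3.98), and ANGPTL4 at 16.6 ± 8.94 CPM (3.78). In endothelial cells CRISPLD2 was at 75.7 ± 22.5 CPM against 5.22 CPM (5.11, edgeR adjusted p = 1.7e-25) and DUSP1 at 163 ± 53.4 CPM against 6.71 CPM (4.31). ANXA1 was at 53.0 ± 16.2 CPM (4.07) and PDK4 at 36.7 ± 15.2 CPM (3.57). The profile of these genes was unlike that of FKBP5 in one respect: in microglia, highest for FKBP5, only ANXA1 (2.55) and NFKBIA (1.00) of the list were called higher, and NFKBIA fell below the size limit without 17-month library 1 or 18-month libraries 1 or 2, and under 3 other alternatives.

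Enzymes that set local cortisol also differed between classes. HSD11B1, which regenerates cortisol from cortisone, was higher in inhibitory neurons (29.5 ± 3.999 CPM, log2 2.13), striatal projection neurons (23.1 ± 2.24 CPM, 2.03) and excitatory neurons (25.3 ± 5.64 CPM, 1.97). Its partner H6PD, which supplies the cofactor, was higher in microglia (26.1 ± 4.96 CPM, 1.56), where HSD11B1 was at 2.73 ± 1.99 CPM. HSD11B2, which inactivates cortisol and protects the mineralocorticoid receptor in kidney, had at most 1.73 CPM in any class and library. ABCB1, the drug efflux transporter that exports cortisol at the blood-brain barrier, was at 1071 ± 154 CPM in endothelial cells and was one of their naming markers, so it was not tested. Among other steroid receptors, PGR was higher in endothelial cells (98.3 ± 26.7 against 4.52 CPM, log2 4.14) and ESR1 in endothelial cells (2.45) and excitatory neurons (2.25). The p-values measure the spread between 5 libraries of 2 animals.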

How the data were processed

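The authors deposited raw UMI counts per gene and barcode for each library. Per the file headers, Cell Ranger 5.0.1 made them. The submitters' processing notes also name CASAVA 1.8, Seurat and the builds Mmul_10 and mm10. The gene identifiers are macaque identifiers, and no genome was used here. Library totals ran from 47512670 to 70896967 UMIs. Nuclei with under 500 genes (359) and the nuclei with the highest Scrublet scores (scanpy 1.11.5; 0.8% per 1000 nuclei, 2555 in all) were removed, and a limit of 5% mitochondrial UMIs removed none.

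Nuclei were clustered with Leiden (igraph 0.11.9) on 30 library-corrected components of 2000 variable genes, drawn from a random subset of genes (seed 1) without listed or marker genes. Clusters were named from marker genes with score thresholds set after the clusters had been seen. Counts were summed per class and library and compared by the robust quasi-likelihood test of edgeR 4.0.16 after filterByExpr and TMM scaling, with Benjamini-Hochberg adjustment, with DESeq2 1.42.0 as an alternative. The fit was tested on counts simulated with a fixed spread for 2 classes. Of genes changed by 1 on the log2 scale, 72.7% were recovered in oligodendrocyte and 46.3% in endothelial sums. For a change of 2 these shares were 97.0% and 91.9%. Of the genes called, 3.45% and 2.17% were false.

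The 9 members, the gene lists and the tests were chosen with earlier results of these data known. Genes outside the members were named by a rule: of each list up to 4 called genes per comparison with the largest log2 difference and 1 direction in all libraries, and the 5 nearest profiles of 3 members. ABCB1, HSD11B2 and NFKBIA were added after their values were seen. Some genes that the rule names are not reported here. Alternatives were no doublet removal, at least 1000 genes per nucleus, leaving out each library, DESeq2 size factors, no filter on low counts, a replicate block, no library block, DESeq2's Wald test and means over nuclei.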

Additional observations from a re-analysis of the deposited data

Results flagged for a closer look

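For 3 members, the 17-month libraries lay above all 18-month libraries in one class and below all of them in another. The difference between classes was not tested in any of these members. Over all fitted genes, the share separate in either direction ran from 33.1% in astrocytes to 49.7% in excitatory neurons. The share with opposite directions in different classes was not counted. NR3C2 was higher in the 17-month animal in oligodendrocytes (log2 0.38 ± 0.08, SE) and lower in astrocytes (-0.15 ± 0.10). ARRDC2 was lower in oligodendrocytes (-0.74 ± 0.15) and higher in microglia (0.34 ± 0.41), where its sums held 9 to 15 UMIs. PER1 was higher in precursors (0.30 ± 0.17) and lower in microglia (-0.22 ± 0.18) and endothelial cells (-0.39 ± 0.24).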

How the results depend on the processing

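The median FKBP5 difference between animals over the 8 classes was 1.21 (log2), and ran from 1.03 to 1.37 when each library was left out in turn. With 1 library of the 17-month animal left out, the lone library is assumed to vary like the others. In every class FKBP5 kept its direction under all 11 alternatives, and its lowest value was 0.21, in microglia. The 11 calls of other glucocorticoid-induced genes between animals became 5 to 12 when a library was left out (7 without either 17-month library and 5 without 18-month library 1). The 12 calls of chaperones and coregulators became 3 to 13 (3 without 17-month library 2, and 6 without 18-month library 1 or 3). The replicate block gave 10 and 10 calls and a median FKBP5 difference of 1.21. The replicate block ended calls of IRS2 in oligodendrocytes (adjusted p 0.056) and inhibitory neurons (0.11), of PER2 (0.059), MT2A (0.080), FKBP4 (0.057) and SRD5A1 (0.11) in oligodendrocytes and of HSPA8 in microglia (0.10). The labels do not say that a number pairs libraries, and deviations of same-numbered libraries correlated between -0.22 and 0.28 by class. Of 695 recomputed member differences between animals, 655 moved by less than their standard error and 0 called values reversed. Of 576 recomputed mean levels, 565 moved by less than the SD over libraries. Within oligodendrocyte cluster 1 alone the FKBP5 log2 ratio of means was 2.38, and within cluster 2 it was 3.61, an alternative chosen after seeing the data. Depth limits HIF3A and ARRDC2 in particular: HIF3A could be fitted in 3 classes and ARRDC2 in 5.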

Other observations

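A cluster of 1910 nuclei with a median of 988 UMIs was left unnamed and entered no comparison. It held PER1 at 154.5 CPM over all libraries, above the mean of every named class, and FKBP5 at 114.5 and 86.6 CPM in the 17-month libraries against 24.5, 45.5 and 41.8 CPM in the 18-month libraries. The unnamed inhibitory cluster of 90 nuclei with high FKBP5 also had NR3C2 at 890.4 CPM and HIF3A at 17.8 CPM, and NR3C1 at 74.4 CPM, over all libraries.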
